A study of Mus musculus with 5 samples.

Results

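In sequenced RNA of microvessel fragments isolated from mouse brain, 10 Kruppel-like factor genes were followed, *Klf2*, *Klf3*, *Klf4*, *Klf6*, *Klf7*, *Klf9*, *Klf10*, *Klf11*, *Klf13* and *Klf15*, out of 37982 gene identifiers measured. They were found by matching their symbols to identifiers in the NCBIM37 annotation, and each symbol had 1 identifier. The 10 genes were chosen by their expression values in all 5 mice, with the difference between genotypes in view, so their levels and their differences between genotypes are given as a description, without a test. The annotation holds 17 genes of the family, and the other 7 are set beside them. The mice were males on the C57BL6 background between 26 and 38 weeks of age, 3 WT littermate controls and 2 heterozygous Ins2-AKITA mice, with 1 library per mouse. Ins2-AKITA mice carry a mutated copy of the insulin 2 gene in the germline, and become hyperglycemic through loss of insulin, so that the comparison asks what long-term hyperglycemia does to the brain vasculature. After collagenase A digestion the fragments were pulled down with magnetic beads carrying an antibody to PECAM1, an endothelial surface protein, and they hold pericytes and astrocyte end-feet besides endothelial cells.

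Kruppel-like factors are transcription factors that bind GC-rich and CACCC-type DNA through a set of zinc fingers at the end of the protein. *Klf2* and *Klf4* are known in endothelium as genes induced by laminar blood flow, through the MEK5 and ERK5 kinases and MEF2 factors, and their proteins are known to favor a quiescent, anticoagulant vessel wall. *Klf6* and *Klf7* belong to the same mainly activating branch, *Klf3* recruits the CtBP corepressors, *Klf9*, *Klf10*, *Klf11* and *Klf13* recruit the Sin3 corepressor complex, and *Klf15* is a metabolic regulator that, like *Klf9*, is induced by glucocorticoids.

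The deposited values are FPKM, fragments scaled to exon length and to the mapped fragments of the library, so that genes of different length can be compared. The number of fragments behind them was estimated from the steps between low values, at 1134500 to 1329000 in 4 of the mice and 2871500 in WT replicate 3. The 10 endothelial markers checked were all above 0 in every mouse, with a summed level between 498 and 848 FPKM in WT and of 507 and 412 FPKM in Ins2-AKITA replicates 1 and 2. Their log2 fold changes were all below 0, beside 53.5% of the 16286 gene symbols tested. Their median was -0.43 (n = 10 genes), beside -0.03 for all symbols tested. The median was -0.50 over 9 pericyte and smooth muscle markers, 0.49 over 6 astrocyte markers, 0.07 over 6 microglia markers, -0.26 over 6 oligodendrocyte markers, 0.21 over 6 neuron markers and -1.09 over 5 erythroid markers. Oligodendrocyte and neuron markers summed to 1946 to 2598 and 725 to 883 FPKM per mouse, so that RNA of brain cells other than vessel cells was present in every sample. None of these markers passed an adjusted p of 0.05 in limma, and 6 of the 48 had an unadjusted p under 0.05, beside 4.46% of all symbols tested.

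*Klf13* and *Klf9*, both of the Sin3-binding group, were the Kruppel-like factors with the highest levels in WT microvessels, and *Klf10* and *Klf11* were the lowest of the 10. In WT mice the mean level was 50.5 ± 3.81 FPKM (SD, n = 3) for *Klf13* and 42.3 ± 13.6 FPKM for *Klf9*. *Klf2* followed with 27.7 ± 2.07 FPKM, above 78.2% of the genes tested, and *Klf4* with 25.5 ± 6.01 FPKM. *Klf7* (22.2 ± 2.15), *Klf15* (21.5 ± 10.2), *Klf3* (16.8 ± 2.33) and *Klf6* (15.0 ± 1.58 FPKM) were in the middle of the order. *Klf10* (5.72 ± 3.59) and *Klf11* (3.36 ± 0.587 FPKM) were the lowest. Neighbours in this order had overlapping WT values except at 2 places, between *Klf9* and *Klf2* and between *Klf6* and *Klf10*. Genes that were not neighbours could still be apart, and all WT values of *Klf2* were above those of *Klf7*, *Klf3* and *Klf6*.

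**Figure D1:**
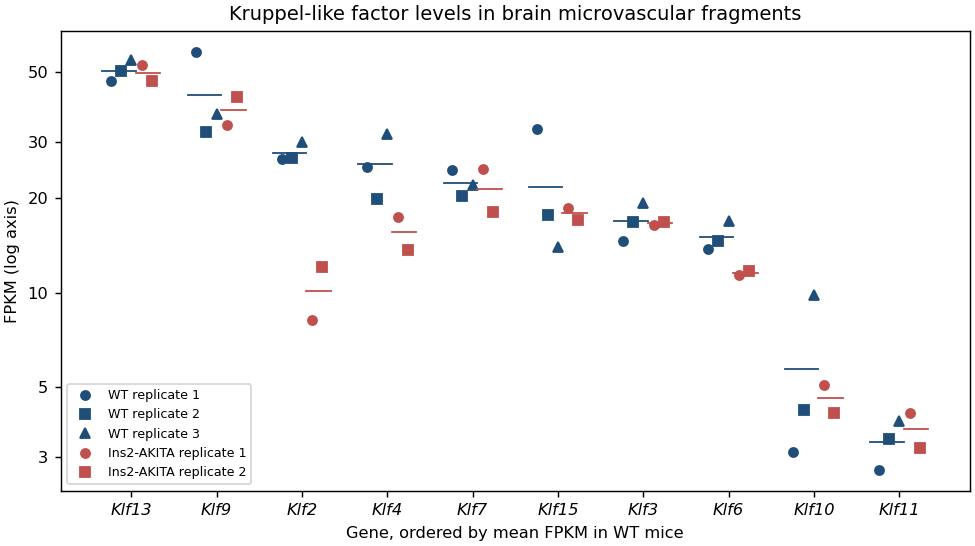
FPKM on a log axis of the 10 Kruppel-like factor genes in each mouse, WT in blue and Ins2-AKITA in red, with short lines at the genotype means (n = 3 and n = 2). The red points lie below all blue points for *Klf2*, *Klf4* and *Klf6*, with the widest gap at *Klf2*, and overlap them for the other 7 genes.

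The 3 genes *Klf2*, *Klf4* and *Klf6*, all of the activating branch, had both Ins2-AKITA values below all WT values with the FPKM as deposited. The other 7 genes overlapped between genotypes, *Klf7* of the same branch included. Outside the 10, *Klf5* of that branch overlapped too, whereas *Klf8*, of the CtBP-binding branch, had both Ins2-AKITA values below all WT values. Over all genes tested, 10.3% had both Ins2-AKITA values below all WT values and 9.24% above them. The 10 genes were proposed with these values known, so nothing is read from the count of 3. Over all genes, 0.0246% were called lower and 0% higher at an adjusted p of 0.05 in limma, and 4.46% had an unadjusted p under 0.05. These shares are set beside the gene lists below. The lists too were chosen with earlier results of these data known, so their counts are a description as well. The log2 fold change was below 0 for 9 of the 10 genes, beside 53.5% of all genes, and above 0 for 1 beside 46.5%. The mean FPKM was lower in Ins2-AKITA mice for the same number, 9, beside 54% of all genes, and the median of the 10 was -0.13 beside -0.03. With median-ratio scaling 7 of the 10 were below 0, and after TPM scaling, taken relative to the median of all genes, 5 were. With 1 mouse left out the number below 0 was between 6 and 9. Nothing is read from these counts of the 10 genes either.

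*Klf2* (ENSMUSG00000055148) is on chromosome 8 of NCBIM37, plus strand, from 74842932 to 74845555, with 1 annotated transcript of 1847 bases. Its level was 26.4, 26.6 and 30.1 FPKM in WT replicates 1 to 3 and 8.20 and 12 FPKM in Ins2-AKITA replicates 1 and 2. The WT mice were close to each other, both Ins2-AKITA mice were low, and the lowest WT value was 2.2 times the highest Ins2-AKITA value. The mean was 27.7 ± 2.07 FPKM (SD, n = 3) in WT and 10.1 ± 2.69 FPKM (SD, n = 2) in Ins2-AKITA mice, 2.74-fold lower. The log2 fold change on log2(FPKM + 1) was -1.39 (standard error 0.24), which was number 421 from the lowest of 16286 genes. In bulk RNA, fewer endothelial cells in the fragments and less *Klf2* RNA per cell cannot be told apart.

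The values of *Klf2* correspond to 50, 57 and 139 fragments in WT replicates 1 to 3 and to 15 and 25 fragments in Ins2-AKITA replicates 1 and 2. The exact 95% Poisson intervals, which cover counting error only, reached from 19.5 to 34.7, from 20.1 to 34.4 and from 25.2 to 35.5 FPKM in the WT mice. They reached from 4.57 to 13.5 and from 7.76 to 17.7 FPKM in Ins2-AKITA replicates 1 and 2. The intervals leave out the spread between mice, so no test of the genotypes is read from them. The share of *Klf2* in the summed FPKM of the 17 family genes was 8.98%, 11.0% and 11.0% in the WT mice, against 3.61% and 5.30% in the Ins2-AKITA mice.

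*Klf4* (ENSMUSG00000003032, minus strand of chromosome 4, 55540013 to 55545347), which shares much of its endothelial role with *Klf2*, had 25.0, 19.7 and 31.7 FPKM in WT and 17.4 and 13.6 FPKM in Ins2-AKITA mice. The genotypes did not overlap, but the gap was narrow, with the lowest WT value 1.13 times the highest Ins2-AKITA value. The means were 25.5 ± 6.01 (SD, n = 3) and 15.5 ± 2.69 FPKM (SD, n = 2), 1.65-fold lower, with a log2 fold change of -0.67 (standard error 0.27). *Klf6* (ENSMUSG00000000078, plus strand of chromosome 13, 5860735 to 5869639), a broadly expressed injury-response factor, had 13.7, 14.6 and 16.8 FPKM in WT and 11.3 and 11.7 FPKM in Ins2-AKITA mice. The difference was 1.31-fold, a log2 fold change of -0.35 (standard error 0.22). Its Poisson intervals overlapped between genotypes, with 8.39 to 14.8 FPKM in Ins2-AKITA replicate 1 and 10.5 to 17.4 FPKM in WT replicate 1. *Klf7* (ENSMUSG00000025959, minus strand of chromosome 1, 64076021 to 64168856), the close relative of *Klf6*, had 24.5, 20.2 and 22.0 FPKM in WT and 24.6 and 18.0 FPKM in Ins2-AKITA mice. Its WT values lay between the Ins2-AKITA values (log2 fold change -0.07, standard error 0.23). The exons of *Klf7* share bases with those of *Gm17427* and *Gm13748* on the opposite strand, and whether strand was used in counting is not given in the sources used here.

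**Figure D2:**
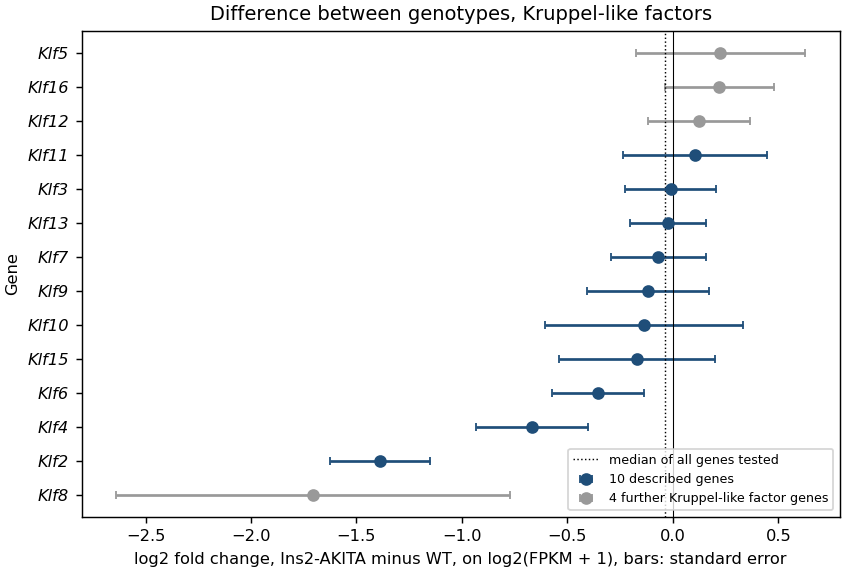
Log2 fold change between Ins2-AKITA and WT mice on log2(FPKM + 1), with the standard error from limma, for the 10 described genes (blue) and the 4 further family genes with a mean of at least 1 FPKM (grey), beside the median of all genes (dotted, -0.03). *Klf2* (-1.39) and *Klf8* (-1.71) are the lowest, and the wide bar of *Klf8* goes with a single high WT mouse.

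Since the log2 fold changes of the endothelial markers were below 0 as well, each gene was also expressed relative to their sum, a choice made after the values had been seen. *Klf2* then stood at 4.22%, 3.14% and 6.04% of the summed FPKM of the 10 markers in the WT mice, against 1.62% and 2.91% in the Ins2-AKITA mice. Both Ins2-AKITA values were still the lowest, although Ins2-AKITA replicate 2 came close to WT replicate 2, and the difference was 1.97-fold. For *Klf4* the shares were 4.0%, 2.33% and 6.36% in the WT mice, against 3.43% and 3.30% in the Ins2-AKITA mice, and the genotypes overlapped. *Klf6* overlapped too, with 2.19%, 1.72% and 3.37% in the WT mice, against 2.24% and 2.83% in the Ins2-AKITA mice. With the mean log2 level of the markers subtracted in each mouse, the log2 fold change was -0.91 for *Klf2*, -0.19 for *Klf4* and 0.12 for *Klf6*, and above 0 for the remaining 7 genes. The part of endothelial content in these values was not tested.

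**Figure D3:**
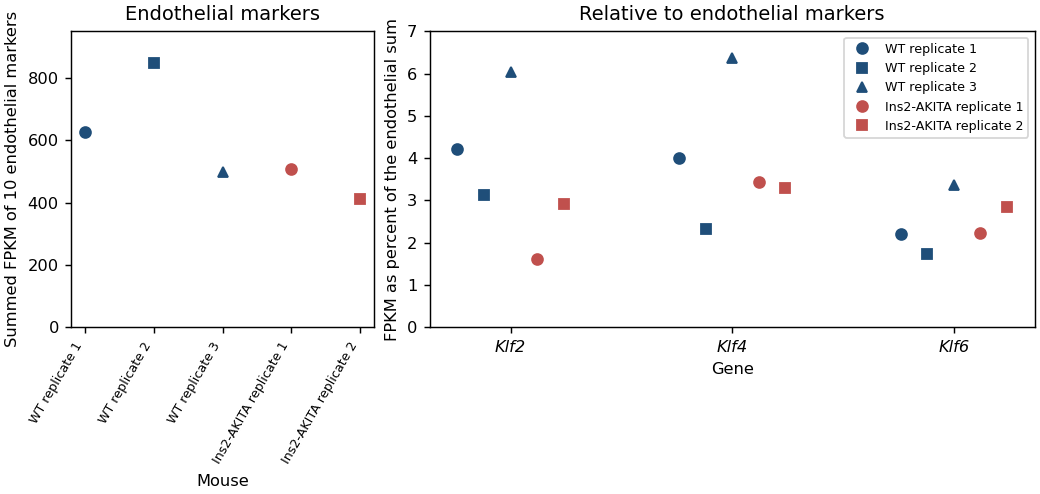
Left, summed FPKM of the 10 endothelial markers in each mouse, lowest in Ins2-AKITA replicate 2 (412 FPKM). Right, FPKM of *Klf2*, *Klf4* and *Klf6* as a percentage of that sum, where the Ins2-AKITA mice (red) remain below the WT mice (blue) for *Klf2* and lie among them for *Klf4* and *Klf6*.

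The DNA before the start site of *Klf2* is shown because the gene is known to respond to flow through a MEF2 site there. *Klf4* and *Klf6* are set beside it because, with the FPKM as deposited, their Ins2-AKITA values were also below all WT values. A shared regulation of these genes was not tested. The sequences are those of RefSeq on GRCm38.p6, a later build than that of the FPKM values, with 250 bases before the start site in the direction of transcription. Capitals mark the MEF2-type motif CTANNNNTAG and the GC box GGGCGG in *Klf2*, and the E-box CACGTG and the GC box in *Klf4* and *Klf6*, on either strand.
Klf2, chr8:72318812-72319061, plus strand: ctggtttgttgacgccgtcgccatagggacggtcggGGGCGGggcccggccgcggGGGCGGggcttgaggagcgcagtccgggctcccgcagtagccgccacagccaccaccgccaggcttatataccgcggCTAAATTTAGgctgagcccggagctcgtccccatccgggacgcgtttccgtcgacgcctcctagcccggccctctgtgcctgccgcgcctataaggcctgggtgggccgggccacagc
Klf4, chr4:55532476-55532725, minus strand: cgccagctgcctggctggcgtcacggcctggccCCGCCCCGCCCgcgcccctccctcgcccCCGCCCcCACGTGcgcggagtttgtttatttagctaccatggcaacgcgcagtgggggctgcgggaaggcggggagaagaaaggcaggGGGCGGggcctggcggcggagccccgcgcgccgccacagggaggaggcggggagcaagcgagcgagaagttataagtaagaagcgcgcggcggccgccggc
Klf6, chr13:5861239-5861488, plus strand: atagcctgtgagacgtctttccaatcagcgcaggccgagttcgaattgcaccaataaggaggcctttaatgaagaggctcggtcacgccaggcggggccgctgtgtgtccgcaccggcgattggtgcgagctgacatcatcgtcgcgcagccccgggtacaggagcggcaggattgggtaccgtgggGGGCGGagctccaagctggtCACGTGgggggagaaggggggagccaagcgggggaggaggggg

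The table of RefSeq promoters held 9 of the 10 genes, all but *Klf10*. CTANNNNTAG, which reads alike on both strands, was found in *Klf2* with its first base at -118 from the start and in none of the other 8 windows, beside 3.2% of 32851 promoter windows of the same length. GGGCGG, a motif that Sp and Kruppel-like factors themselves bind, occurred in 8 of the 9 genes, all but *Klf9*, beside 32.7% of the windows. CACCC occurred in 6 of the 9 beside 52% of the windows. CACGTG occurred in *Klf4*, *Klf6*, *Klf11* and *Klf15* beside 6.02% of the windows, and the cyclic AMP response element TGACGTCA in none of the 9 beside 1.55%. Matches of different motifs shared bases at 2 places in the 9 windows. These matches describe letters and not binding, and no match says only that the letters are not in the window.

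The values of *Klf3*, *Klf13*, *Klf11*, *Klf10* and *Klf9*, the repressors among the 10, overlapped between genotypes. *Klf3* (ENSMUSG00000029178) had 14.6, 16.7 and 19.2 FPKM in WT and 16.4 and 16.8 FPKM in Ins2-AKITA mice, with both Ins2-AKITA values inside the WT range and a log2 fold change of -0.01 (standard error 0.22). *Klf13* (ENSMUSG00000052040), the most abundant of the 10, had 46.9, 50.2 and 54.5 FPKM in WT and 52.7 and 46.7 FPKM in Ins2-AKITA mice. It varied little, with an SD of 7.55% of the mean in WT, and its log2 fold change was -0.02 (standard error 0.18). *Klf11* (ENSMUSG00000020653), which like *Klf10* was described as a TGF-beta inducible gene, had 2.74, 3.44 and 3.91 FPKM in WT and 4.16 and 3.22 FPKM in Ins2-AKITA mice. It was the member with the highest log2 fold change, 0.11 (standard error 0.34), and at this level 3 fragments correspond to 0.262 to 0.661 FPKM depending on the mouse.

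*Klf10* (ENSMUSG00000037465) had 3.11, 4.24 and 9.82 FPKM in WT and 5.10 and 4.14 FPKM in Ins2-AKITA mice, with WT replicate 3 at 1.9 times the next mouse. The log2 fold change was -0.14 (standard error 0.47), and 0.27 without WT replicate 3, so its sign turns on that mouse. WT replicate 3 was also the mouse with the highest level of *Klf2*, *Klf3*, *Klf4*, *Klf6* and *Klf13*, 6 of the 10 genes in all, whereas 11.1% of all genes tested were highest in it. This mouse has the deepest library, and the part of depth was not tested.

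*Klf9* (ENSMUSG00000033863) had 57.8, 32.2 and 36.9 FPKM in WT and 33.9 and 41.7 FPKM in Ins2-AKITA mice, and *Klf15* (ENSMUSG00000030087) had 33.1, 17.6 and 13.9 FPKM in WT and 18.6 and 17.0 FPKM in Ins2-AKITA mice. For both genes WT replicate 1 stood above the other 4 mice, 1.38 times the next mouse for *Klf9* and 1.78 times for *Klf15*. The log2 fold changes were -0.12 (standard error 0.29) and -0.17 (standard error 0.37), and without WT replicate 1 they were 0.12 and 0.17. Because both genes are known to be induced by glucocorticoids, the glucocorticoid receptor and its response genes were set beside them. Of the 10 genes of that list, 7 were highest in WT replicate 1, and 6 were at least 1.5 times the next mouse there, beside 28.4% and 7.07% of all genes tested. *Fkbp5*, a chaperone partner of the receptor, had 37.1 FPKM in WT replicate 1 and 6.69 to 10.3 FPKM in the other mice, and *Tsc22d3*, an anti-inflammatory target, had 80.6 FPKM against 15.9 to 42.1 FPKM. *Nr3c1*, the receptor gene itself, was lowest in WT replicate 1, with 23.0 FPKM against 26.8 to 45.4 FPKM. *Klf8*, which is not of that list, was also highest in WT replicate 1, at 10.8 times the next mouse. These values rest on 1 mouse, and the part of glucocorticoids in them was not tested.

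**Figure D4:**
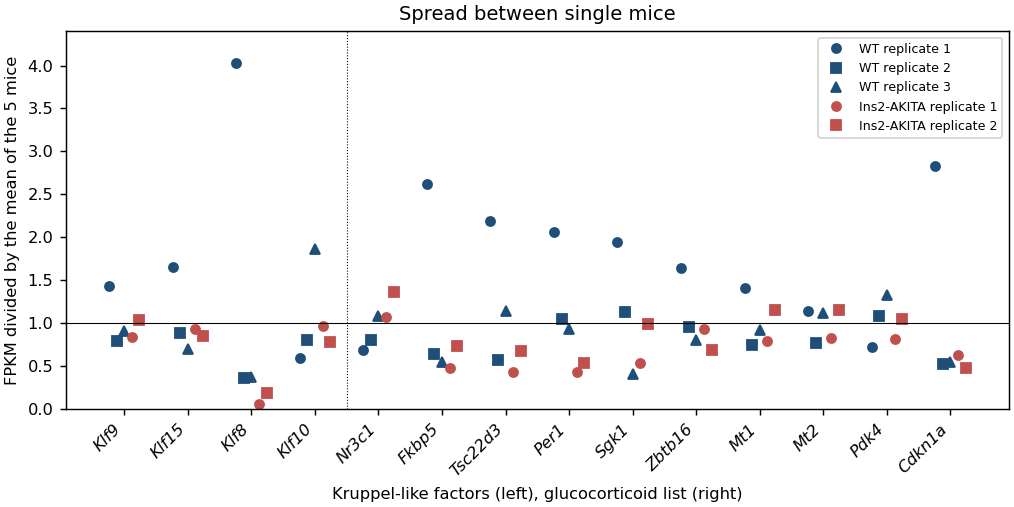
FPKM of each mouse divided by the mean of the 5 mice, for *Klf9*, *Klf15*, *Klf8* and *Klf10* on the left and the 10 genes of the glucocorticoid list on the right. WT replicate 1 (blue circle) is the highest point for *Klf9*, *Klf15*, *Klf8* and 7 of the 10 list genes, and WT replicate 3 (blue triangle) for *Klf10*.

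None of the 10 glucocorticoid genes passed an adjusted p of 0.05 in limma between genotypes, and 1 of them, *Per1*, had an unadjusted p under 0.05. *Per1*, which is also a clock gene, had 74.7, 37.8 and 33.6 FPKM in WT and 15.5 and 19.4 FPKM in Ins2-AKITA mice (log2 fold change of -1.34 with a standard error of 0.37 and an adjusted p of 0.90 in limma), the lowest of the list. The highest was *Nr3c1* at 0.50 (standard error 0.25, and in limma an adjusted p of 0.90), and the gene with the highest level was the metallothionein gene *Mt1*, with 224 to 427 FPKM. The median of the list was -0.40, beside -0.03 for all genes, but it was 0.017 without WT replicate 1, -0.18 without Ins2-AKITA replicate 1 and -0.81 without WT replicate 3.

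Of the 7 further family genes, 4 had a mean of at least 1 FPKM and were tested, and none passed an adjusted p of 0.05 in limma or an unadjusted p under 0.05. *Klf8*, of the CtBP-binding branch, had 16.4 FPKM in WT replicate 1, 10.8 times the next mouse, then 1.45 and 1.51 FPKM in the other WT mice and 0.212 and 0.744 FPKM in the Ins2-AKITA mice (log2 fold change of -1.71 with a standard error of 0.93 and an adjusted p of 0.90 in limma). Without WT replicate 1 its log2 fold change was -0.77. *Klf12*, of the same branch, had 14.5, 16.3 and 20.9 FPKM in WT and 17.1 and 20.4 FPKM in Ins2-AKITA mice. *Klf16*, of the Sin3-binding group, had 10.1, 12.4 and 11.0 FPKM in WT and 10.9 and 15.9 FPKM in Ins2-AKITA mice. *Klf5*, of the activating branch with *Klf2* and *Klf4*, had 5.16, 5.57 and 2.35 FPKM in WT and 5.34 and 4.69 FPKM in Ins2-AKITA mice. Their log2 fold changes were 0.13, 0.22 and 0.23, with adjusted p-values of 0.95, 0.91 and 0.94 from limma. *Klf12* and *Klf16* were thus at levels above those of *Klf10* and *Klf11*, although they are not among the 10. *Klf1*, the erythroid factor, was at 0 in 3 mice and at 1.16 and 1.36 FPKM in WT replicate 2 and Ins2-AKITA replicate 1, each from 2 fragments. *Klf14* and *Klf17* were listed at 0 in all mice. Among the Sp factors, which carry the same type of zinc fingers, 5 of 9 were tested and none passed an adjusted p of 0.05 or an unadjusted p under 0.05 in limma. Their median of -0.17 was 0.031 without WT replicate 1, 0.0017 without Ins2-AKITA replicate 1, -0.38 without WT replicate 2 and -0.37 without Ins2-AKITA replicate 2. *Sp3* had the highest level, 23.9 to 50.1 FPKM, and log2 fold changes reached from -0.43 for *Sp2* (standard error 0.45) to 0.10 for *Sp1* (standard error 0.26).

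Upstream of *Klf2* and *Klf4*, 9 genes of the MEK5, ERK5 and MEF2 route were tested, class II histone deacetylases that hold MEF2 back included, and none passed an adjusted p of 0.05 in limma. The median was -0.20, with 4 genes above and 5 below 0. *Map3k3*, the kinase at the head of the route, had 22.4, 24.0 and 18.0 FPKM in WT and 15.0 and 13.3 FPKM in Ins2-AKITA mice, which did not overlap. It had the lowest log2 fold change of the route, -0.56 (standard error 0.22, and in limma an adjusted p of 0.90), and was the only one of the 9 with an unadjusted p under 0.05. *Mef2c*, a factor that binds MEF2 sites, was at the other end, with 31.6, 33.3 and 28.1 FPKM in WT and 38.7 and 41.6 FPKM in Ins2-AKITA mice (log2 fold change of 0.37 with a standard error of 0.18 and an adjusted p of 0.90 in limma). Of the 9 genes, 1, *Map3k3*, had both Ins2-AKITA values below all WT values and 1, *Mef2c*, above them. Over all genes the shares were 10.3% and 9.24%. The deacetylase *Hdac5* had the highest level, 151 to 213 FPKM. Of the 4 genes of the CCM complex and its partner, which restrain MAP3K3 in endothelium, none passed an adjusted p of 0.05 or an unadjusted p under 0.05, and the median was -0.21. *Heg1*, the membrane partner, had 39.6, 58.0 and 39.2 FPKM in WT and 33.2 and 25.5 FPKM in Ins2-AKITA mice (log2 fold change of -0.61 with a standard error of 0.25 and an adjusted p of 0.90 in limma). *Krit1* was at 9.37 to 11.0 FPKM in all mice, with a log2 fold change of 0.01 (standard error 0.23) that was -0.031 when the protein-coding genes were scaled to the same sum.

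The genes that KLF2 is known to control were split between those it raises and those it lowers, and no gene of either list passed an adjusted p of 0.05 in limma. Of the 4 genes it raises, none had an unadjusted p under 0.05 and 3 had a log2 fold change below 0, with a median of -0.40 that was -0.11 without Ins2-AKITA replicate 2, -0.21 without WT replicate 2 and -0.66 without Ins2-AKITA replicate 1. *Nos3*, the endothelial nitric oxide synthase, had 10.1, 20.2 and 15.5 FPKM in WT and 13.4 and 8.56 FPKM in Ins2-AKITA mice, and *Thbd*, the anticoagulant thrombomodulin, had 9.07, 15.0 and 12.1 FPKM in WT and 10.9 and 7.13 FPKM in Ins2-AKITA mice. In both genes 1 Ins2-AKITA mouse, replicate 2, was lower than every WT mouse, and the other was within the WT range. Their log2 fold changes were -0.42 and -0.38, beside a median of -0.43 for the 10 endothelial markers. Neither these lists nor the upstream genes were expressed relative to those markers, and the part of endothelial content was not tested. *S1pr1*, a sphingosine phosphate receptor and the most abundant of the 4, had a log2 fold change of 0.20 (standard error 0.26), and *Nppc*, which encodes C-type natriuretic peptide, had the lowest, -0.61 (standard error 0.53). Of the 6 genes it lowers, 4 were tested, with 2 above and 2 below 0 and a median of -0.01. *Angpt2*, an angiopoietin that destabilizes vessels, had the lowest log2 fold change of these, -1.03 (standard error 0.38, and in limma an adjusted p of 0.90), with 4.62, 5.0 and 3.37 FPKM in WT and 2.08 and 1.17 FPKM in Ins2-AKITA mice, and was the only one with an unadjusted p under 0.05. The adhesion molecule gene *Vcam1* had the highest, 0.41 (standard error 0.28, and in limma an adjusted p of 0.90), with 14.6, 20.0 and 25.8 FPKM in WT and 24.4 and 28.6 FPKM in Ins2-AKITA mice. *Kdr*, a VEGF receptor gene, varied from 14.1 to 41.3 FPKM within WT mice alone and had a log2 fold change of 0.04 that was -0.0045 when the protein-coding genes were scaled to the same sum.

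**Figure D5:**
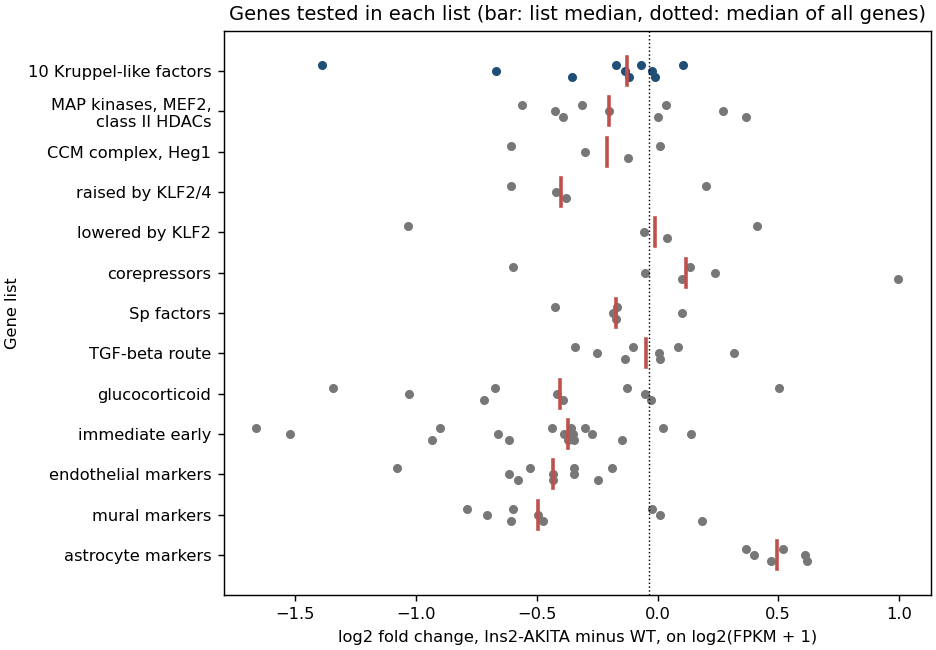
Log2 fold change between Ins2-AKITA and WT mice of every gene tested in each list, with a red bar at the list's median and a dotted line at the median of all genes (-0.03). The 10 Kruppel-like factors have a median of -0.13 with *Klf2* far to the left, the immediate early and endothelial lists have medians of -0.37 and -0.43, and the astrocyte markers lie to the right with 0.49.

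Among the partners through which the repressive members act, 6 corepressor genes had a median of 0.12, none passed an adjusted p of 0.05 in limma and 1 had an unadjusted p under 0.05. This was *Ctbp2*, a partner of *Klf3*, with 34.0, 25.8 and 16.4 FPKM in WT and 51.0 and 48.4 FPKM in Ins2-AKITA mice (log2 fold change of 1.00 with a standard error of 0.31 and an adjusted p of 0.90 in limma). Its relative *Ctbp1*, the most abundant of the 6, had 71.3 to 88.2 FPKM and a log2 fold change of 0.10 (standard error 0.18). *Sin3a*, the scaffold bound by *Klf9*, *Klf10*, *Klf11* and *Klf13*, was low in Ins2-AKITA replicate 1 alone, with 11.9 FPKM against 24.2 to 29.9 FPKM in the other mice (log2 fold change of -0.60 with a standard error of 0.34 and an adjusted p of 0.90 in limma). Of the 8 genes of the TGF-beta route to *Klf10* and *Klf11*, none passed an adjusted p of 0.05 or an unadjusted p under 0.05 in limma, with 4 above and 4 below 0 and a median of -0.05. They reached from -0.34 for the receptor gene *Tgfbr2* (standard error 0.26) to 0.31 for *Smad2* (standard error 0.30), and the most abundant was *Smad3*, with 27.3 to 49.3 FPKM.

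*Klf2*, *Klf4*, *Klf6* and *Klf10* also respond within minutes to handling of tissue, as immediate early genes do. Of 17 immediate early genes, 15 had a log2 fold change below 0, beside 53.5% of all genes, with a median of -0.37. Both Ins2-AKITA values were below all WT values for 8 of them, beside 10.3% of all genes. None passed an adjusted p of 0.05 in limma, and 4 had an unadjusted p under 0.05, beside 4.46% of all genes. The list was chosen with earlier results of these data known, so these counts are a description. The summed level of the 17 was 323 to 333 FPKM in WT and 236 and 251 FPKM in Ins2-AKITA mice. *Fos*, a defining gene of the list, did not follow, with 24.6, 26.7 and 33.7 FPKM in WT and 23.7 and 34.2 FPKM in Ins2-AKITA mice. *Jun*, the most abundant, had 46.4, 58.5 and 74.3 FPKM in WT and 46.1 and 43.1 FPKM in Ins2-AKITA mice. Its genotypes were barely apart, with the lowest WT value 1.01 times the highest Ins2-AKITA value. The lowest log2 fold change was that of *Myc*, -1.66 (standard error 0.49, and in limma an adjusted p of 0.90), with 2.43, 6.54 and 3.48 FPKM in WT and 0.576 and 0.506 FPKM in Ins2-AKITA mice, and the highest was that of *Btg2*, 0.14 (standard error 0.31). Both Ins2-AKITA values of *Myc* were below 1 FPKM, near the floor, and the fragments behind them were not estimated. The part of tissue handling in the values of *Klf2*, *Klf4* and *Klf6* was not tested.

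The genes whose values over the 5 mice were most like those of *Klf2* were *Shf*, *Mrpl38*, *Ciapin1*, *Cytl1* and *Trim23*. Likeness was measured over 11262 genes with a mean of at least 5 FPKM, as the root mean square difference of log2(FPKM + 1) after centring each gene on its mean, and was 0.11, 0.16, 0.17, 0.21 and 0.21. *Shf*, which encodes an adaptor protein, had 29.8, 33.1 and 30.0 FPKM in WT and 8.72 and 14.0 FPKM in Ins2-AKITA mice. Of the family, *Klf4* was nearest, at 0.47 and number 278 of 11262, and *Klf6* came next at 0.53 and number 591. The other 8 family genes compared were at 0.69 or more, from number 3579 on. Each gene was centred on its mean over all 5 mice, so the difference between genotypes is part of this measure. *Klf4* and *Klf6* had the lowest log2 fold changes of the family genes compared with *Klf2*, -0.67 and -0.35 beside -1.39 for *Klf2*. The order therefore partly restates the difference between genotypes, and likeness apart from genotype was not tested.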

How the data were processed

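Reads of 5 rRNA-depleted, stranded total RNA libraries were mapped by the authors to NCBIM37 with TopHat2 2.0.4, duplicated reads were removed with Picard 1.92, and tests were run with Cufflinks 2.2.1. The authors deposited 1 FPKM value per Ensembl gene and mouse. The program behind the values of single mice and the Ensembl release are not given in the sources used here. Removal of duplicates can lower abundant short genes.

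Identifiers were matched to GENCODE vM1 of NCBIM37 (37197 of 37982), rows were summed to 34615 symbols, and the 16286 with a mean FPKM of at least 1 were fitted with limma 3.58.1 (trend, R 4.3.3) after taking log2(FPKM + 1), in a model of genotype alone with Benjamini-Hochberg adjustment over all of them, after a test on simulated data. Fold changes on this scale understate those of low genes. Fragments were estimated from genes with 1 transcript over 1000 bases, of which 97.69% to 98.05% of values up to 8.5 fragments fell within 0.05 of a whole number. Small and ribosomal RNA genes made up 40.6% to 96.7% of the summed FPKM, so values were not rescaled. Python 3.11.15 was used for other steps.

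The members and lists were chosen with earlier results of these data known. All members and the other family genes with a mean FPKM of at least 1 were named, and from each list the gene with the highest level and those with the lowest and highest log2 fold change. Further genes (*Fkbp5*, *Tsc22d3*, *Nos3*, *Thbd*, *Fos*, *Klf1*, *Klf14*, *Klf17*) were named after their values were seen. Alternatives were a pseudocount of 0.1, no filter (above 0 in any mouse), a filter at 5, 3 scalings, the replicate block and each mouse left out. Promoters came from RefSeq (GRCm38.p6).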

Additional observations from a re-analysis of the deposited data

How the results depend on the processing

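With TPM values taken relative to the median of all genes, *Klf2* had a log2 fold change below 0 under every setting tried, from -1.64 to -0.87, and *Klf4* from -0.84 to -0.19. The centred TPM values, -0.87 for *Klf2* and -0.29 for *Klf4*, had wide standard errors of 0.84 and 0.87. Before that centring the TPM values gave 0.20 for *Klf2*, 0.78 for *Klf4* and 0.96 for *Klf6*. *Klf6* was between -0.41 and -0.11 except relative to the endothelial markers (0.12), and the other 7 genes took both signs. With TPM scaling the median over all genes moved to 1.07, and relative to that shift the median of the 10 genes (-0.13) became 0.030, with 5 of them below 0 in place of 9. The replicate number pairs no mice in the labels. Deviations of same-numbered mice from their genotype means correlated at 0.051 and -0.034 across genes. With the replicate block, in which WT replicate 3 has no partner, *Klf2* was at -1.33, 6 of the 10 genes were below 0, and 5 genes were called lower and 0 higher in place of 4 and 0.

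The number called higher (0) became 17 with centred TPM values and the number called lower (4) became 1010, of which the median mean TPM was 0.25 beside 2.88 for the other genes, so that log2(TPM + 1) holds most of them near 0 before the shift is subtracted. The number called lower was 2 with no filter or with the filter at 5. With one mouse left out they ranged from 0 to 10 and from 1 to 6, a lone Ins2-AKITA mouse being taken to vary like the others, and the median of the 10 genes from -0.26 to -0.068. The list medians under TPM scaling were 0.19 for the MEK5, ERK5 and MEF2 route (-0.26 with the filter at 5, -0.15 with the replicate block), 0.11 for the CCM complex, 0.58 for the corepressors, 0.18 for the TGF-beta route and -0.22 for the immediate early genes (-0.45 with a pseudocount of 0.1, -0.47 with the replicate block). With one mouse left out they ranged from -0.014 to 0.20 for the further family genes, -0.15 to 0.054 for the MEK5, ERK5 and MEF2 route, -0.40 to -0.042 for the CCM complex, 0.023 to 0.21 for the corepressors, -0.20 to 0.25 for the genes KLF2 lowers, -0.66 to -0.11 for those it raises, -0.38 to 0.031 for the Sp factors, -0.81 to 0.017 for the glucocorticoid genes (-0.81 with the replicate block, -0.037 with TPM scaling) and -0.47 to -0.34 for the immediate early genes.

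Among single genes, TPM scaling turned *Hdac5* to 0.41, *Jun* to 0.12, *Klf5* to -0.034, *Mt1* to 0.58 and *Sp3* to 0.30. With centred TPM values *Klf8* (-1.36) and *Myc* (-1.38) had adjusted p-values of 0.0027 and 0.0020 in a t test with limma's standard error. That test took the subtracted median, 1.07, as known, and the subtraction is part of both values. Neither gene passed an adjusted p of 0.05 with the FPKM as deposited. Scaling to protein-coding genes turned *Kdr* to -0.0045 and *Krit1* to -0.031, and the replicate block turned *Klf5* to -0.083, *Krit1* to -0.048, *Smad3* to -0.15 and *Sp1* to -0.029. Leaving out single mice gave -0.097 to 0.38 for *Btg2*, -0.022 to 0.22 for *Ctbp1*, -0.32 to 0.42 for *Kdr*, -0.034 to 0.47 for *Klf16*, -0.083 to 0.40 for *Klf5*, -0.051 to 0.073 for *Krit1*, -0.33 to 0.22 for *Mt1*, -0.024 to 0.65 for *Smad2*, -0.19 to 0.36 for *Smad3*, -0.029 to 0.30 for *Sp1* and -0.64 to 0.30 for *Sp3*. The cause of these changes was not tested. The depth limits *Klf1*, *Klf5*, *Klf8*, *Klf10* and *Klf11*, where few fragments lie behind a value. It also limits *Klf2* in Ins2-AKITA replicates 1 and 2, with 15 and 25 fragments.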
